A study of Mus musculus with 8 samples.

Results

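Striatal medium spiny neuron genes were measured by bulk sequencing of poly(A) RNA from PrL tissue, read here as prelimbic cortex, an area of the medial prefrontal cortex. The set held 9 genes by symbol: Drd1, Drd2, Adora2a, Ppp1r1b, Rgs9, Pde10a, Rarb, Serpina9 and Ido1. All 9 were among the 14765 genes of the count table, and all 9 passed the filter on low counts. They were read in each library as a check for tissue next to the cortex. The libraries came from C57 mice in 2 groups, 4 Sham and 4 SNI. In pain research SNI means spared nerve injury, in which part of the sciatic nerve is cut so that pain persists, and Sham is the control operation. Age, sex, time after surgery and pooling of animals are not given in the labels, nor is it said that each library came from a separate mouse. The p-values therefore rest on the spread among libraries, some of which may be technical.

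Medium spiny neurons are the GABAergic projection neurons that make up most of the striatum. The direct-pathway class carries the D1 dopamine receptor, which raises cyclic AMP, and the indirect-pathway class carries the D2 dopamine receptor, which lowers it, together with the adenosine receptor encoded by Adora2a, which raises it. These signals meet on protein kinase A and on DARPP-32, the product of Ppp1r1b. The anterior striatum lies beside the medial prefrontal cortex, with white matter of the corpus callosum between them. Cortex is not free of these genes: Drd1 and Ppp1r1b are also carried by deep-layer cortical neurons.

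Upstream sequences were taken from RefSeq (GRCm38.p6), which matched 5 of the 9 genes (Drd1, Drd2, Pde10a, Rarb and Rgs9). The 250 bases before the start of the receptor genes Drd1 and Drd2 and of Rgs9 are shown as examples of the set. They lie at chr13:54054781-54055030 (minus strand, the inner of the Drd1 starts), chr9:49340153-49340402 (plus strand) and chr11:109298182-109298431 (minus strand). For Rarb, 30 bases around a retinoic acid response element are shown, at chr14:16575506-16575535 (minus strand), because the gene encodes a receptor of that signal. Capitals mark matches on either strand to the motifs searched.
Drd1: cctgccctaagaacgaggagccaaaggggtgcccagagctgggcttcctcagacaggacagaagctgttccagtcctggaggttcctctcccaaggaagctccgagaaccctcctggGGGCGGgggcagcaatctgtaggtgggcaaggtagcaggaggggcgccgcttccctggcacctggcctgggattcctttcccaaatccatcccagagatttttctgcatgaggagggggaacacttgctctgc
Drd2: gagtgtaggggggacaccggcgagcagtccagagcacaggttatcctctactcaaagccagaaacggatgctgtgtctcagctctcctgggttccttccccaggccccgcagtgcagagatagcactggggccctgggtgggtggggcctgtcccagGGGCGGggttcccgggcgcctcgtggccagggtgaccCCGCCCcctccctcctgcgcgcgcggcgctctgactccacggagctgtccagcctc
Rgs9: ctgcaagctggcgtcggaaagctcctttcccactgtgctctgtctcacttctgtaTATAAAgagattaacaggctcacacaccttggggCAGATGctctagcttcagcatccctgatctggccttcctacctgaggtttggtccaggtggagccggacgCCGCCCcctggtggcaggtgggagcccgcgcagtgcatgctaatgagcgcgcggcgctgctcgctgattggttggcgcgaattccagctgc
Rarb: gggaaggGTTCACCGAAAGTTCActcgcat
Each of the first 3 windows held the Sp1 box GGGCGG, in Drd2 at 2 places, and 32.7% of 32851 RefSeq windows of that length held it too. The window of the outer Drd1 start, not shown, held 0 of the motifs searched. The Rgs9 window also held TATAAA (12.4% of windows) and the E-box CAGATG (14.4%). A Pde10a window that is not shown held both GGGCGG and CAGATG. The Rarb element matched the direct repeat spaced by 5 bases in its RARB form, which 0.067% of windows held, and began 52 bases before the RefSeq start. None of the 5 genes' windows matched the cyclic AMP response element TGACGTCA (1.55% of windows), the consensus form of that repeat (0.0761%) or the MEF2 core TATTTATA (1.56%).

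The libraries held 14735602 to 19602487 counts, and 1 CPM (a count relative to the library total after TMM scaling) stood for 14.7 to 20.2 reads. Rank correlations of whole libraries lay between 0.990 and 0.995 for same-group pairs and between 0.984 and 0.992 for the others. Slc17a7, the vesicular glutamate transporter that defines cortical excitatory neurons, stood at 321 to 360 CPM per kb of exon in the Sham libraries and 211 to 344 in the SNI libraries, far above every gene of the set.

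The 9 genes ranked the libraries in much the same order. SNI replicates 2 and 4 were the highest pair of the 8 libraries for 9 of 9 genes, an order held by 5.71% of all 13911 genes tested. Sham replicates 2 and 3 were the lowest pair for 8 of 9. Sham replicate 1 lay above SNI replicate 1 for 5 of 9. The summed level of the 9 genes was 277, 131, 141 and 219 CPM in Sham replicates 1 to 4, and 250, 483, 295 and 533 CPM in SNI replicates 1 to 4. In bulk tissue, more cells of a type and more RNA per cell cannot be told apart.

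**Figure D1:**
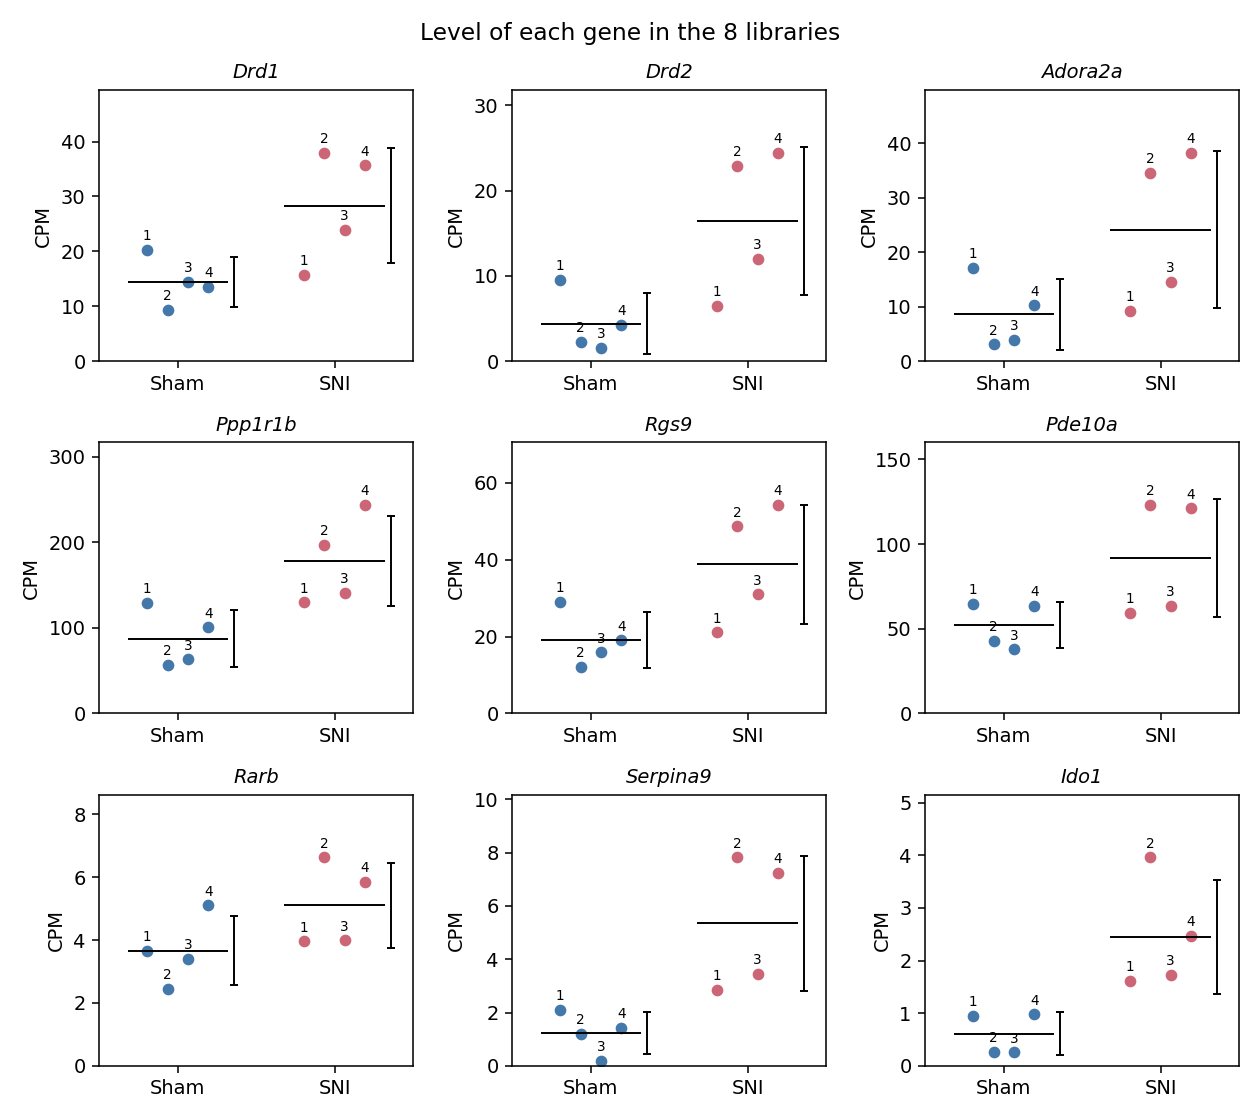
Level of each of the 9 genes in CPM (linear axis from 0) in the 4 Sham (blue) and 4 SNI (red) libraries, numbered by replicate. Horizontal lines are group means and bars show ± 1 SD; SNI replicates 2 and 4 are the highest points for 9 of 9 genes.

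Per kb of exon, which allows genes to be compared, Ppp1r1b was the most abundant at 29.9 ± 11.5 CPM per kb in Sham and 60.8 ± 18.05 in SNI (SD over the 4 libraries of a group). Pde10a, Drd1, Rgs9, Adora2a and Drd2 followed in Sham at 4.06 ± 1.07, 3.98 ± 1.24, 2.98 ± 1.14, 2.80 ± 2.14 and 1.73 ± 1.42 CPM per kb (SD, n = 4 libraries each), each within the spread of the next. Rarb stood at 0.695 ± 0.208, and Serpina9 and Ido1 at 0.335 ± 0.216 and 0.335 ± 0.223 CPM per kb (SD, n = 4 libraries each). In SNI the order of the middle genes was Adora2a (7.88 ± 4.70), Drd1 (7.81 ± 2.87), Pde10a (7.14 ± 2.73), Drd2 (6.46 ± 3.41) and Rgs9 (6.06 ± 2.41), again with overlapping spreads. Serpina9 (1.45 ± 0.694) and Ido1 (1.34 ± 0.593) lay above Rarb (0.971 ± 0.256) there, by less than their SDs.

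Drd1 encodes the D1 dopamine receptor, on chromosome 13 from 54051183 to 54055705 (GRCm38, GENCODE M21, minus strand). Its level was 20.3, 9.36, 14.5 and 13.6 CPM in Sham replicates 1 to 4, and 15.7, 38.0, 23.96 and 35.7 CPM in SNI replicates 1 to 4. The groups overlapped: Sham replicate 1 lay above SNI replicate 1, while the other 3 SNI libraries lay above all Sham libraries. The group means were 14.4 ± 4.498 and 28.3 ± 10.4 CPM (SD, 4 libraries per group), and the log2 fold change of 0.98 ± 0.332 (SE) did not pass edgeR's quasi-likelihood test (adjusted p = 0.150). It passed without SNI replicate 1 (edgeR adjusted p = 0.0294).

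Drd2 encodes the D2 receptor, on chromosome 9 from 49340627 to 49408177 (plus strand). It stood at 9.57, 2.26, 1.58 and 4.24 CPM in the Sham libraries and 6.44, 22.9, 11.98 and 24.5 CPM in the SNI libraries, in the order of their replicate numbers. SNI replicate 1 again lay inside the Sham range. The log2 fold change was 1.91 ± 0.674 (SE), with means going from 4.41 ± 3.62 to 16.4 ± 8.67 CPM (SD over the 4 libraries of a group), and did not pass (edgeR adjusted p = 0.174). Adora2a encodes an adenosine receptor that couples to cyclic AMP production, on chromosome 10 from 75316877 to 75334784 (plus strand). Its values were 17.2, 3.05, 3.92 and 10.2 CPM in Sham and 9.23, 34.5, 14.5 and 38.3 CPM in SNI. Sham replicate 1 exceeded SNI replicates 1 and 3, and the log2 fold change of 1.499 ± 0.710 (SE) did not pass (edgeR adjusted p = 0.292).

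The balance of the receptors differed between libraries. Per kb of exon, Drd2 over Drd1 was 0.672, 0.343, 0.156 and 0.445 in Sham replicates 1 to 4, and 0.583, 0.858, 0.712 and 0.977 in SNI replicates 1 to 4. The ratio was lowest in Sham replicate 3, from 25 Drd2 and 229 Drd1 counts, and highest in SNI replicate 4, from 406 and 592. Adora2a over Drd2, which share the indirect-pathway neuron, ran from 1.01 to 2.06 with the highest values in Sham replicates 3 and 4. No test was made on these ratios.

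The intracellular signalling genes followed the same order of libraries. Ppp1r1b encodes DARPP-32, a phosphatase inhibitor switched on by protein kinase A, on chromosome 11 from 98348404 to 98357796 (plus strand). It stood at 129, 57.0, 63.3 and 101 CPM in Sham and 130.0, 197, 141 and 244 CPM in SNI. The groups did not overlap, but the gap between Sham replicate 1 and SNI replicate 1 was from 129.1 to 130.0 CPM. Its log2 fold change of 1.02 ± 0.336 (SE) did not pass (edgeR adjusted p = 0.150), and DESeq2 gave an adjusted p of 0.0468.

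Rgs9 encodes a GTPase-activating protein that shortens D2 receptor signals, on chromosome 11 from 109225355 to 109298129 (minus strand). Its values were 29.1, 12.1, 15.9 and 19.0 CPM in Sham and 21.1, 48.7, 30.9 and 54.2 CPM in SNI. Pde10a encodes a phosphodiesterase that breaks down cyclic AMP and cyclic GMP, on chromosome 17 from 8525372 to 8986648 (plus strand). It stood at 64.7, 43.0, 37.9 and 63.3 CPM in Sham and 59.5, 123, 63.4 and 121 CPM in SNI. For Pde10a, SNI replicates 1 and 3 lay within the Sham range and only SNI replicates 2 and 4 lay above it. The log2 fold changes were 1.03 ± 0.387 for Rgs9 and 0.81 ± 0.330 for Pde10a (SE), and neither passed (edgeR adjusted p = 0.194 and 0.225).

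Rarb, the retinoic acid receptor beta, a nuclear receptor needed for normal development of the striatum, lies on chromosome 14 from 16430839 to 16819156 (minus strand). It was scarce and had the smallest ratio of highest to lowest library of the 9, with 3.66, 2.46, 3.41 and 5.10 CPM in Sham and 3.97, 6.64, 3.99 and 5.85 CPM in SNI. Here Sham replicate 4 lay above SNI replicates 1 and 3. The log2 fold change was 0.48 ± 0.245 (SE; edgeR adjusted p = 0.273). Rarb overlaps Top2b on the opposite strand, and the use of strand in counting is not stated, so its value is uncertain. Ppp1r1b and Pde10a also overlap opposite-strand genes, which are absent from the count table, so the same doubt holds for them. Top2b itself was at 134 ± 4.11 CPM in Sham against 141 ± 19.2 in SNI (SD).

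Serpina9 and Ido1 were the 2 genes of the set that rose in SNI at an FDR of 0.05. Both were known from earlier results of these data as large rises, so their calls are a description and not independent support. Serpina9, a serpin known from germinal-centre B cells, lies on chromosome 12 from 103994743 to 104013755 (minus strand) and shares part of its span with the transcript Gm28577 on the same strand, which makes its value uncertain. It had 31, 18, 3 and 25 counts in Sham (2.10, 1.20, 0.190 and 1.43 CPM) and 46, 158, 52 and 120 counts in SNI (2.85, 7.83, 3.46 and 7.23 CPM). All SNI libraries lay above all Sham libraries, and SNI replicates 2 and 4 stood apart from the other SNI libraries. The log2 fold change was 2.13 ± 0.517 (SE), or 4.37-fold (edgeR adjusted p = 0.0453). The call ended without Sham replicate 2 (edgeR adjusted p = 0.131) or 4 (0.113), and without SNI replicate 2 (0.0938), 3 (0.0637) or 4 (0.0800).

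Ido1 encodes indoleamine dioxygenase, which opens the tryptophan ring in the first step of the kynurenine pathway, on chromosome 8 from 24584136 to 24597009 (minus strand). It had 14, 4, 4 and 17 counts in Sham (0.950, 0.266, 0.253 and 0.975 CPM) and 26, 80, 26 and 41 counts in SNI (1.61, 3.96, 1.73 and 2.47 CPM). The groups did not overlap, and with 2 Sham libraries at 4 counts each the gene passed the filter on low counts through SNI. The log2 fold change was 1.99 ± 0.442 (SE), or 3.98-fold (edgeR adjusted p = 0.0191), and the call ended without Sham replicate 3 (edgeR adjusted p = 0.0625) or SNI replicate 2 (0.0617).

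Across the set, 2 of 9 genes were called higher and 0 lower, where 2.15% of all 13911 genes tested were called higher and 5.02% in either direction. The 2 called genes, Serpina9 and Ido1, were known beforehand as large rises. Their share beside that of all genes is therefore a description and not support. All 9 had log2 fold changes above 0, and 7 of 9 had an unadjusted edgeR p under 0.05, a level reached in the same direction by 10.3% of all genes tested. The 3 genes whose groups did not overlap were Ppp1r1b, Serpina9 and Ido1, with all SNI libraries above all Sham libraries, as in 5.64% of all genes tested. Serpina9 and Ido1 are in both of these counts, and the 9 genes varied together from library to library. These shares too are therefore descriptions and not support. Without SNI replicates 2 and 4, 0 of 9 were called, where 1.23% of genes tested were called higher. The fold then fell from 1.97 to 1.37 for Drd1, from 3.76 to 2.09 for Drd2, from 2.83 to 1.38 for Adora2a, from 2.03 to 1.55 for Ppp1r1b, from 2.04 to 1.37 for Rgs9, from 1.76 to 1.18 for Pde10a and from 1.40 to 1.08 for Rarb. It fell from 4.37 to 2.56 for Serpina9 and from 3.98 to 2.69 for Ido1, and both calls ended (edgeR adjusted p = 0.212 and 0.168). Since SNI replicates 2 and 4 were the highest pair for 9 of 9 genes, leaving both out lowers each fold by construction.

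**Figure D2:**
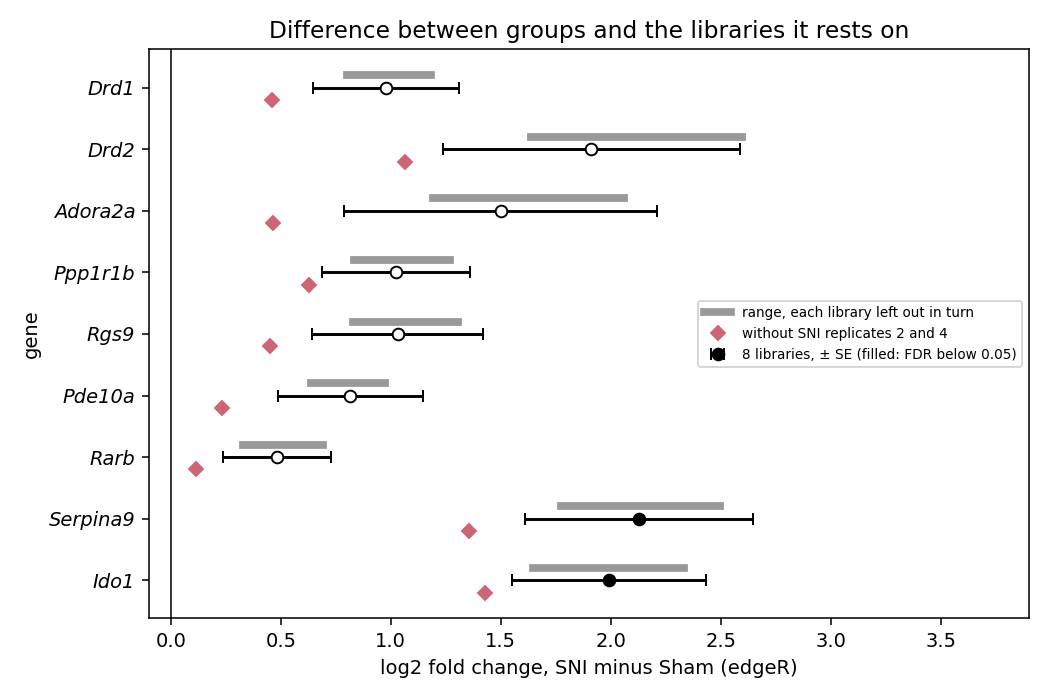
Log2 fold change of each gene (SNI minus Sham, edgeR) with its SE over 8 libraries (circles, filled where the adjusted p was below 0.05), the range when each library is left out in turn (grey bars), and the value without SNI replicates 2 and 4 (diamonds). The diamonds, from 0.12 for Rarb to 1.43 for Ido1, lie left of the grey bars. Leaving out the 2 highest libraries lowers each fold by construction, though not necessarily past the bars, which include fits without a Sham library.

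Averaged over the 9 genes as log2 CPM minus each gene's mean, the value per library was 0.09, -1.17, -1.27 and -0.30 in Sham replicates 1 to 4, and -0.04, 1.20, 0.32 and 1.16 in SNI replicates 1 to 4. Sham replicate 1 thus stood above SNI replicate 1, and the groups overlapped. Set against the other 7 genes, Serpina9 lay 0.37 to 0.72 higher in the SNI libraries and between -1.94 and 0.33 in the Sham libraries on the log2 scale, with no overlap. Ido1 lay between -0.05 and 0.66 in SNI and between -0.77 and 0.09 in Sham, which overlapped. These gaps are descriptions, with no test.

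Other genes of medium spiny neurons were read from lists that left the 9 out. Of 33 listed, 29 were tested, and 1 rose and 1 fell, near the 2.15% called higher and 2.87% called lower among all genes tested, which are also the shares to set beside the list counts that follow. Rasgrp2, an activator of the small GTPase Rap1, rose from 17.4 ± 2.19 to 25.6 ± 4.48 CPM (SD, 4 libraries per group; log2 fold change 0.56, edgeR adjusted p = 0.0249). Its call ended without Sham replicate 3 or SNI replicates 2 or 4, with a highest edgeR adjusted p of 0.0849. Coch, an extracellular matrix protein, fell from 33.9 ± 3.63 to 23.5 ± 3.25 CPM (SD, 4 libraries per group; log2 fold change -0.53, edgeR adjusted p = 0.0153). Its call ended without Sham replicate 3 or SNI replicate 3 (highest 0.0590).

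The list of genes shared by both classes (20 tested) had a median log2 fold change of 0.26, against 0.01 over all genes tested. For the direct-pathway list (6 tested) the median was 0.11, and for the indirect-pathway list (3 tested) it was 0.73. A raised median was not particular to these lists. It was 0.31 for layer 6, 0.27 for septum and thalamus, 0.22 for oligodendrocyte and 0.96 for choroid plexus and ependymal genes. For cortical excitatory and interneuron genes it was -0.36 and -0.09. Gpr6, an orphan receptor of indirect-pathway neurons, had 6.45, 2.12, 1.39 and 3.33 CPM in Sham and 4.46, 13.6, 6.12 and 14.3 CPM in SNI. Penk, the precursor of enkephalin in the same neurons, had 124, 83.1, 54.6 and 76.05 CPM in Sham and 62.9, 243, 71.7 and 183 CPM in SNI. Tac1, the precursor of substance P in direct-pathway neurons, had 37.1, 21.8, 19.8 and 26.3 CPM in Sham and 21.3, 58.3, 28.95 and 49.1 CPM in SNI. In these 3 genes SNI replicates 2 and 4 were the highest pair, Sham replicate 1 lay above SNI replicate 1, and none passed (edgeR adjusted p = 0.175, 0.486 and 0.418). Over both pathway lists that pair was highest for 4 of 9 genes (the fourth was Pdyn) and not for Chrm4, Ebf1, Eya1, Sfxn1 and Sp9. In the shared list it was highest for 14 of 20. Pde1b (log2 fold change 0.43), Pdyn (0.30), Sfxn1 (0.08) and Sp9 (-0.32), the other genes of smallest p in these lists, did not pass either.

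Cholinergic neuron markers, of the striatum and basal forebrain, had SNI replicates 2 and 4 as the highest pair for 3 of 3 genes. The list mean was lowest of the 8 libraries in SNI replicate 3 (-0.69), where Chat had 2 counts. Slc5a7 was lowest in Sham replicates 3 and 2, and Ecel1 in Sham replicates 4 and 3. Slc5a7, the choline transporter, stood at 1.90, 0.930, 0.885 and 1.61 CPM in Sham and 1.18, 5.05, 1.80 and 4.46 CPM in SNI. Chat, which makes acetylcholine, stood at 2.08 and 2.05 CPM in SNI replicates 2 and 4 and at 0.133 to 0.806 CPM in the other 6 libraries. Of 3 genes tested, 0 passed (log2 fold changes of 1.24 for Slc5a7, 1.09 for Chat and 0.95 for Ecel1, edgeR adjusted p = 0.123, 0.282 and 0.227).

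**Figure D3:**
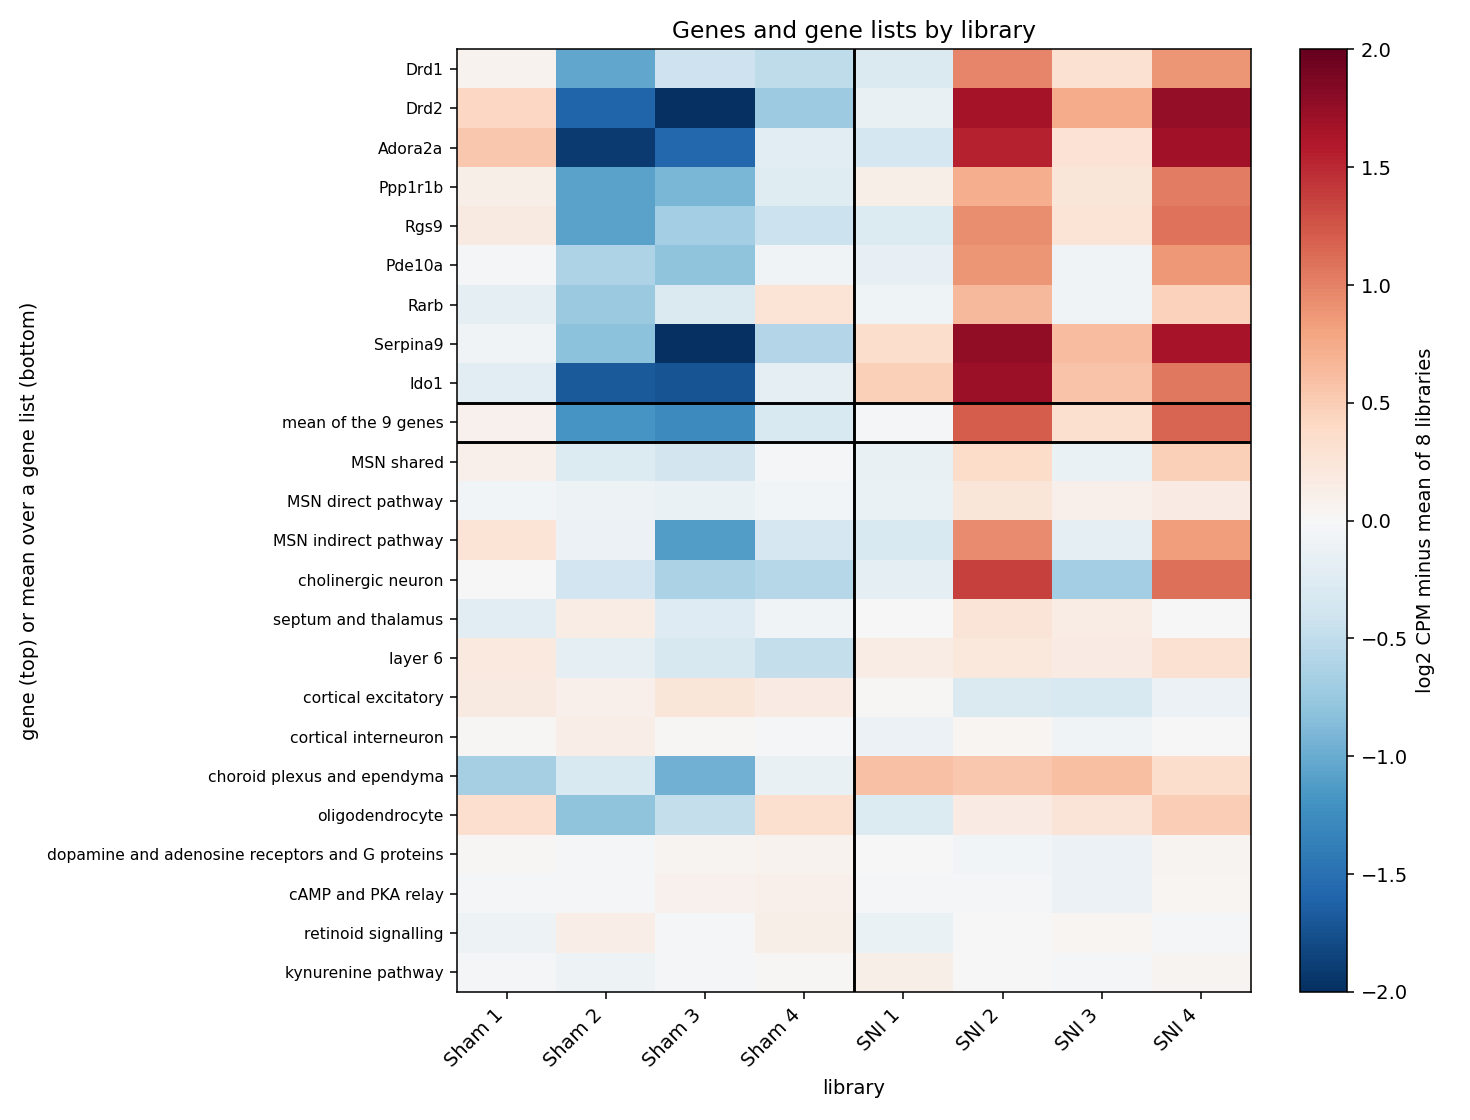
Log2 CPM minus the mean of the 8 libraries (colour, stopping at ±2) for each of the 9 genes (top), their mean (middle row) and the mean over each gene list (below; MSN, medium spiny neuron), with libraries in columns. Columns SNI 2 and SNI 4 are red for the 9 genes and for the indirect-pathway and cholinergic lists, while cortical excitatory genes are -0.30 and -0.11 there. More weakly, both columns are above 0 for the shared (0.36 and 0.47) and direct-pathway lists (0.24 and 0.16). The same holds for layer 6 (0.21 and 0.31), oligodendrocyte (0.16 and 0.49) and choroid plexus and ependymal genes (0.53 and 0.36). In each other list, SNI 2 or SNI 4 or both are below 0.

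Lists of other cell types and neighbouring tissues were read the same way. Of 10 cortical excitatory neuron genes 4 fell: Nrn1 (log2 fold change -0.79), Mef2c (-0.40), Emx1 (-0.53) and Itpka (-0.44, named after its value was seen). The mean over that list was 0.18, 0.11, 0.24 and 0.16 in Sham and 0.03, -0.30, -0.31 and -0.11 in SNI, lowest in SNI replicates 2 and 3. Of 10 layer 6 genes 2 rose, Hs3st4 (0.53) and Ntsr1 (0.58), and Foxp2 had 0.95 (edgeR adjusted p = 0.0746). Foxp2 was the 1 gene of the 10 with SNI replicates 2 and 4 as its highest pair (31.7 and 26.9 CPM). The layer 6 list, whose neurons also carry Drd1 and Ppp1r1b, ran from 0.14 to 0.31 in SNI. In Sham replicates 1 to 4 it stood at 0.19, -0.20, -0.33 and -0.48. Its summed level was 387 to 596 CPM in Sham and 573 to 673 CPM in SNI, and its part in the Drd1 and Ppp1r1b values was not tested.

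Of 9 septal and thalamic genes 2 rose, Prkcd (0.74) and Zic4 (0.88), and Zic2 had 0.29. Of 5 choroid plexus and ependymal genes 2 were called higher, Clic6 (2.31) and Ttr (2.46), and Kl had 0.96. Clic6 had 2, 1, 6 and 8 counts in Sham and Ttr 1, 5, 2 and 9. Both thus passed the filter on low counts through SNI alone. A filter of 1 CPM in 4 libraries removes both before testing. The 0 calls of the list under that filter therefore do not test their rise. That list ran from 0.36 to 0.60 in SNI and from -0.97 to -0.15 in Sham, with SNI replicate 4 the lowest of SNI. Of 10 interneuron genes 1 fell, Cck (-0.43), while Npy had -0.24 and Htr3a 0.23. Of 8 oligodendrocyte genes 0 passed. Their summed level was 2987 to 6572 CPM in Sham and 4200 to 7403 CPM in SNI, and Ermn, Opalin and Mobp had log2 fold changes of 0.74, 0.46 and 0.36. The calls of Nrn1, Hs3st4 and Cck held with each library left out. That of Mef2c ended without Sham 3, that of Ntsr1 without Sham 3, Sham 4 or SNI 3, and those of Prkcd and Zic4 without Sham 1, 2 or 3 or SNI 2 or 3. Emx1 lost its call without any library but Sham 2 or SNI 1, and Itpka without Sham 3 or 4 or SNI 2, 3 or 4. Clic6 lost it without Sham 1 or SNI 2 or 3, and Ttr without Sham 1 or 3 or SNI 1 or 2. The highest edgeR adjusted p of these genes ran from 0.0588 for Mef2c to 0.103 for Zic4.

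In lists of the pathways in which the 9 genes act, 0 genes were called higher. Of 17 other dopamine and adenosine receptor, G protein and RGS genes 2 fell and 0 rose, with a median log2 fold change of -0.08. Rgs4, a regulator of Gi and Gq signals in cortical neurons, fell from 590.4 ± 58.9 to 338 ± 49.9 CPM (SD, 4 libraries per group; log2 fold change -0.81, edgeR adjusted p = 0.00118). Rgs7, a relative of Rgs9, fell from 117 ± 4.04 to 94.3 ± 10.9 CPM (SD, 4 libraries per group; log2 fold change -0.31, edgeR adjusted p = 0.0493), a call kept in 2 of 8 fits with a library left out (highest 0.168). Gng7, the G protein gamma subunit of the striatal cyclic AMP relay, had 0.54 and did not pass.

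Of 27 cyclase, phosphodiesterase, kinase and phosphatase genes 1 fell, Prkar1b, a regulatory subunit of protein kinase A (-0.46, edgeR adjusted p = 0.0152, and 0.0544 without Sham replicate 3). Adcy8 and Pde1b had -0.36 and 0.43, and the list's median was -0.06. Of 19 retinoid genes besides Rarb 1 fell. It was Cyp26b1, which breaks down retinoic acid, from 6.52 ± 1.11 to 3.28 ± 0.775 CPM (SD, 4 libraries per group; log2 fold change -0.99, edgeR adjusted p = 0.0152). Aldh1a1, which makes retinoic acid, had -0.70, Rxrb, a partner receptor, had -0.18, and the list's median was -0.02. Of 5 kynurenine pathway genes tested besides Ido1, 0 passed, and Got2, Kyat3 and Tdo2 had -0.15, 0.43 and 0.48.

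Genes that varied as the 9 did were sought after each group's mean had been subtracted, so that the difference between groups did not enter. Likeness was Pearson's r over the 8 libraries with the mean of the 9, given as a description. Among the 36 pairs of the 9 genes, which share their libraries, r ran from 0.44 (Rarb with Serpina9) to 0.98 (Adora2a with Ppp1r1b), with a median of 0.83. Adora2a had the highest median r with the other 8 (0.91), and Rarb and Serpina9 the lowest (0.74 each).

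The 10 genes most like the 9, among 13481 ranked, were Wdyhv1 (0.99), Ermp1 (0.98), Gpr6 (0.98), Gpr155 (0.97), Syndig1l (0.97), Lrrc10b (0.96), Cd4 (0.96), Rrm2 (0.96), Scn9a (0.96) and Espl1 (0.96). Gpr6, Syndig1l and Lrrc10b belong to the medium spiny neuron lists. Syndig1l, a synaptic membrane protein, had 11.5, 4.12, 2.46 and 10.2 CPM in Sham and 7.745, 21.6, 10.65 and 27.96 CPM in SNI. Wdyhv1, a glutamine amidase, moved far less, from 13.3 to 15.9 CPM in Sham and 14.7 to 17.0 CPM in SNI. Of the first 50 genes, 7 were in the medium spiny neuron lists. The median r was 0.80 for the medium spiny neuron genes shared by both classes and 0.85 for the 3 indirect-pathway genes, but -0.14 for the 6 direct-pathway genes. Among the last, Tac1 (0.94) and Pdyn (0.90) varied with the 9, while Chrm4 (-0.13), Ebf1 (-0.16), Eya1 (-0.23) and Sfxn1 (-0.56) did not. The median was 0.83 for oligodendrocyte genes, 0.41 for layer 6 genes and -0.13 for cortical excitatory genes, against -0.01 over all genes ranked.

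**Figure D4:**
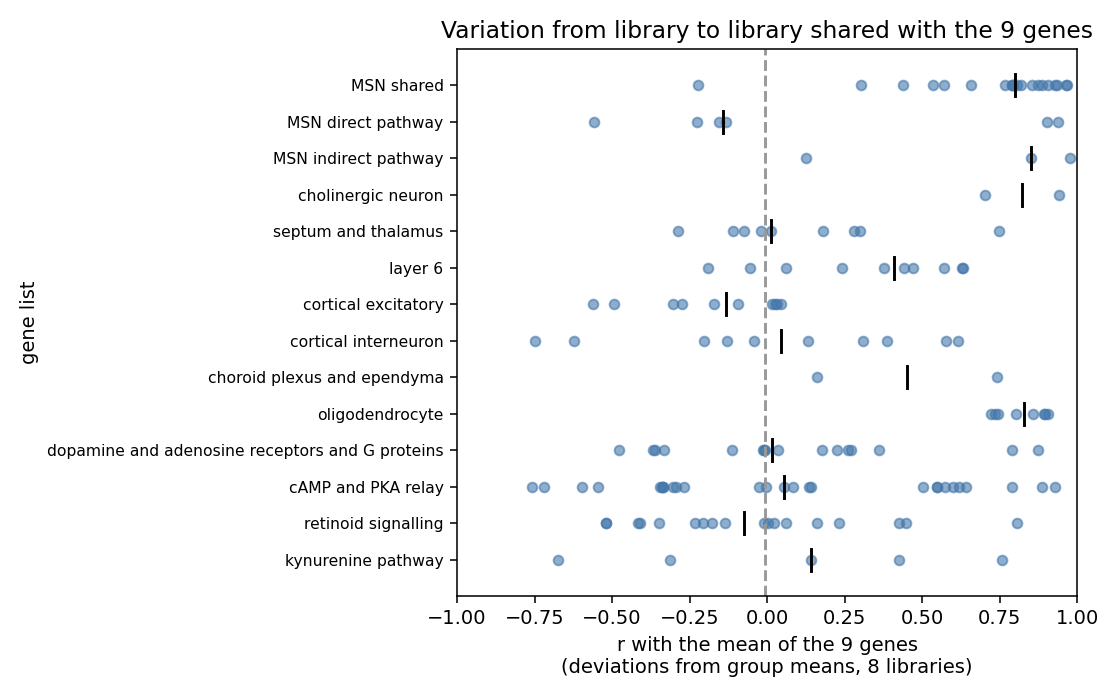
Pearson's r of each list gene (points) with the mean of the 9 genes over 8 libraries, after subtraction of group means; black ticks are list medians and the dashed line is the median of all 13481 genes ranked. Shared medium spiny neuron genes (median 0.80) and oligodendrocyte genes (0.83) have medians to the right, and direct-pathway genes (-0.14) and cortical excitatory genes (-0.13) do not.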

How the data were processed

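Bulk RNA sequencing of PrL tissue was analysed in 4 Sham and 4 SNI libraries, grouped by their titles. In the authors' table, values are raw read counts per gene symbol, made, per the submitters' processing notes, with fastp, HISAT2 and StringTie on GRCm38. For versions, annotation, filter and strand, nothing is stated (not given in the sources used here). Every gene has at least 1 count in every library. Libraries held 14735602 to 19602487 counts, which limits precision near 1 CPM.

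Counts were tested with edgeR 4.0.16 (R 4.3.3): filterByExpr (13911 of 14765 genes), TMM, robust quasi-likelihood F-test, two-sided, group as the only term, Benjamini-Hochberg over all genes tested, FDR 0.05. The SE is the log2 fold change over the square root of F. Log2 CPM used a prior count of 2. Coordinates and exon lengths came from GENCODE M21 (14661 symbols matched). On simulated counts of this comparison (13919 genes) the fit recovered 59.7%, 82.1% and 100% of genes changed by 0.5, 1 and 2 on the log2 scale, with 9 of 170 calls false. Each gene was simulated independently, without variation shared by genes from library to library, so these rates need not hold for the 9 genes.

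The genes and the 14 lists were chosen with earlier results of these data known. Named were the 9 genes, the 3 tested genes of smallest p in each list and the 10 genes most like the 9. Alternatives were RLE, upper quartile and total scaling, no filter, a stricter filter (at least 1 CPM in 4), limma 3.58.1 voom with sample weights, DESeq2 1.42.0, a fit blocked on replicate number, leaving out each library in turn, and SNI replicates 2 and 4 left out. No library was a copy of another (chi-square per degree of freedom of 7.77 to 29.7 between same-group pairs).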

Additional observations from a re-analysis of the deposited data

How the results depend on the processing

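The 9 log2 fold changes kept their sign in each of 17 alternatives. Of 153 values, 141 stayed on their side of the threshold, 10 (Serpina9 and Ido1) lost the call, and 2 gained it, Drd1 without SNI replicate 1 and Ppp1r1b with DESeq2. The number of genes of the set called, 2 of 9, ran from 0 (without SNI replicate 2) to 3 (without SNI replicate 1) with a library left out, and was 0 without SNI replicates 2 and 4 and 1 with limma voom (Ido1, adjusted p = 0.0101; Serpina9, 0.0771). Of the 3 medium spiny neuron lists, 2 genes were called, with a range of 0 (without Sham replicate 3) to 3 with a library left out, and 4 with DESeq2. Over all genes the 698 calls became 258 (without Sham replicate 3) to 858 (without SNI replicate 1) with a library left out, 438 without SNI replicates 2 and 4, and 1153 with DESeq2. Scaling by library totals gave 446 higher and 276 lower calls, against 299 and 399. The mean log2 difference of the 9 genes between groups, 1.33, ran from 1.12 to 1.58 with a library left out, and was 0.80 without SNI replicates 2 and 4. Of the 10 genes most like the 9, 9 stayed under other scalings or a prior count of 0.5, and 6 when the group means were kept or Serpina9 and Ido1 left out. Same-numbered libraries did not deviate together (correlations of -0.15 to -0.01 over genes, best with the own number in 0 of 8 libraries). The labels do not say whether equal numbers pair libraries, and these correlations cannot exclude it. With a replicate block 518 genes and 2 of the 9 were called. Depth limits Ido1 and Serpina9 in Sham, where 3 to 31 reads were counted per library.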

Other observations

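Mki67, Tpx2 and Sox11 were among the 50 genes most like the striatal genes. They were chosen after their values were seen, and other genes of dividing cells were not counted. Mki67, a marker of cells in cycle, had 5.09, 1.33, 1.07 and 4.99 CPM in Sham replicates 1 to 4, and 3.47, 8.12, 5.13 and 6.81 CPM in SNI replicates 1 to 4. Tpx2, a spindle protein, had 4.48, 2.26, 2.65 and 4.015 CPM in Sham and 3.47, 5.20, 4.53 and 5.54 CPM in SNI. Sox11, a transcription factor of young neurons, had 19.8, 16.7, 15.8 and 20.5 CPM in Sham and 20.3, 26.5, 22.4 and 28.4 CPM in SNI. Sham replicates 2 and 3 were the lowest pair for each of these 3 genes, and the groups overlapped. None passed the edgeR test (adjusted p = 0.349 for Mki67, 0.269 for Tpx2 and 0.0630 for Sox11).

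Cd4, known as a T cell coreceptor, also varied with the striatal genes, at 3.60, 0.664, 0.885 and 2.47 CPM in Sham and 2.23, 7.33, 3.86 and 5.845 CPM in SNI (edgeR adjusted p = 0.176). No single library stood apart from the other 3 of its group for any of the 9 genes or the list means, in 50 groups checked by the gap to the nearest library over the range.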
